A study of Oryza sativa Japonica Group with 96 samples.

Results

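The genes described here are 100 of 36643 array features of rice whose expression in line DXC fell furthest below that in line DX at 6 and 9 h after dexamethasone and was not low afterwards. For each feature, D at a given hour is the mean log2 level in DXC minus the mean log2 level in DX, minus the same difference at 0 h. The 29857 features with a mean D above -0.3 over 12 to 45 h were kept, and the 100 of them with the lowest mean of D at 6 and 9 h were taken. The members were thus chosen by their values on the arrays of 0, 6, 9 and 12 to 45 h, and their line differences at those hours are given as description, with no test.

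Both lines are the crl1 mutant of cultivar Taichung 65, which lacks a working CRL1 gene, transformed with the vector pINDEX2. Line DXC, a single transformed line, carries CRL1 under control of dexamethasone, and line DX carries the empty vector. Seedlings of both lines were given 1 µM dexamethasone at 0 h, washed free of it at 5 h and sampled every 3 h up to 45 h, in 3 independent experiments. For all samples, 5 days of growth, 24 h of rest and 14 h of daylight are recorded. Each of the 96 arrays, 48 of DXC and 48 of DX, holds RNA of 8 to 12 pooled stem bases. Fewer cells of a type and less RNA per cell thus cannot be told apart.

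CRL1 is a transcription factor of the LOB-domain family that responds to auxin and is needed for crown roots, the roots that rice forms from its stem base. A transcription factor that is switched on for a few hours can change its targets briefly, and genes outside its control can also differ between lines at single hours. The sampled hours of 6 and 9 h follow the removal of dexamethasone. No feature was tied to CRL1 by the annotation used here, so the induced gene was not analysed here.

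Few members could be named. Of the 100 features, 42 have 1 gene symbol, against 65.9% of all features, and 58 have none. RefSeq lists 37 of the 42 as protein coding, 3 as pseudogenes and 2 as long non-coding RNAs. Only 3 have a name beyond a LOC number. LOC4347620 is DREB1A (also CBF3), an AP2/ERF transcription factor of the cold and drought response, on chromosome 9. LOC4349074 is OsYABBY3, of the YABBY family of plant transcription factors, which act in leaf and flower development, on chromosome 10. LOC4339379 is OsC3H37, of the CCCH zinc finger family, many of whose members bind RNA, on chromosome 5. The members are not all separate measurements. In the table, 8 of them fall in 3 groups of features with identical values, which leaves 95 distinct profiles.

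The mean of D at 6 and 9 h ran from -2.01 to -0.79 over the members, with a median of -0.87, against -0.01 over all features. Most members lay close to the limit of the choice, and 22 were under -1. The members ranked 96 to 100 had values of -0.80 to -0.79 and the features ranked 101 to 105 had -0.79. LOC4332595 was the last inside and LOC4349493 the first outside. A further 281 features were as low at 6 and 9 h but failed the limit on the later hours. Between these 2 hours, D was the lower at 6 h in 63 members and at 9 h in 37. Some members were lower still at 3 h, such as 16192120, with -1.51, -0.98 and -1.16 at 3, 6 and 9 h.

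**Figure D1:**
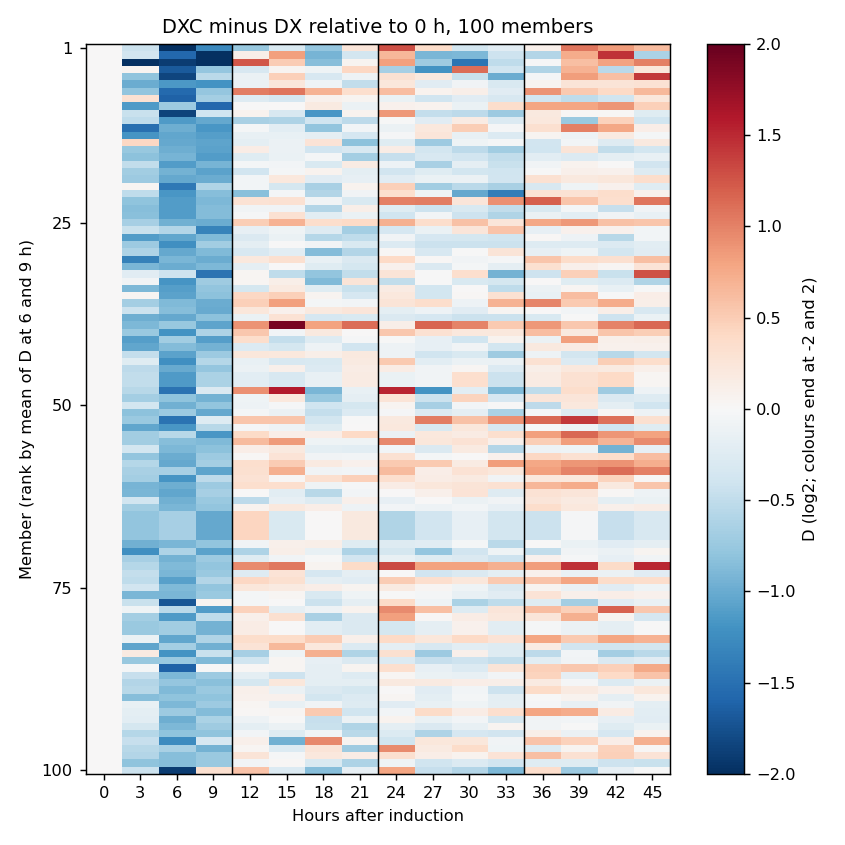
D of the 100 members (rows, ranked by the mean of D at 6 and 9 h) at the 16 sampled hours (columns), in log2 units, blue where DXC was lower relative to 0 h. The blue columns at 3, 6 and 9 h end at 12 h, where 88 of 100 members were above -0.3; the vertical lines part blocks of 4 sampled hours.

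Taken line by line, the members had a lower level in DXC and a higher level in DX than at 0 h, and the change in DX was the larger in the mean over the experiments. The median level of the members in DXC was 4.97, 4.82, 4.64, 4.71 and 5.03 (log2) at 0, 3, 6, 9 and 12 h. In DX the median level at the same hours was 4.79, 5.39, 5.48, 5.49 and 4.86. From 0 h to the mean of 6 and 9 h the median change was -0.31 in DXC and 0.61 in DX. In DX the level was higher than at 0 h in 100 of 100 members, and in DXC it was lower than at 0 h in 95 of 100. The increase in DX was larger than the decrease in DXC for 82 members and smaller for 18, counting the 5 whose level was higher in both lines among the 82. The larger change in DX rested on experiment 3. The median change of the members was -0.25, -0.32 and -0.34 in DXC in experiments 1, 2 and 3, against 0.25, 0.36 and 1.12 in DX, so the lines changed by similar amounts in experiments 1 and 2.

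By 12 h the median difference was back near its 0 h value. The median DXC minus DX difference was 0.06, -0.61, -0.92, -0.82 and -0.01 at 0, 3, 6, 9 and 12 h. At 12 h, D was above 0 in 51 members and above -0.3 in 88, within a range of -0.83 to 1.24. From 12 h on, the hourly median of D stayed between -0.26 and 0.10, which the rule's limit on the later hours favours. At 0 h the lines already differed for some members, with DXC higher by over 0.5 in 12 and lower by over 0.5 in 12. Without subtraction of the 0 h difference, 95 members were lower in DXC at 6 and 9 h and 5 were higher.

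The 3 experiments agreed in direction for most members and differed in size. The median over the members of the mean D at 6 and 9 h was -0.49 in experiment 1, -0.70 in experiment 2 and -1.49 in experiment 3. The value was below 0 for 85, 87 and 95 members in experiments 1, 2 and 3. It was below 0 in all 3 experiments for 68 members, against 16.3% of all features, and at both hours in all 3 for 48, against 6.79% of all features, shares that the choice of members raises. Experiment 3 gave the lowest of the 3 values for 77 members, experiment 2 for 20 and experiment 1 for 3. The values of 14 members did not overlap at 6 and 9 h, all 6 DXC arrays lying below all 6 DX arrays, against 2.62% of all features. Of these 14, 12 have a gene symbol, among them OsYABBY3, LOC4337645, LOC4330378 and LOC4326919.

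The size of the dip in an experiment that did not take part in the choice was small. The rule was applied to each pair of experiments, and the 100 features it gave were looked up in the third. With experiment 1 left out, 45 of the 100 members were chosen again, and the 100 features chosen had a median of -0.18 in experiment 1, with 63 below 0. With experiment 2 left out, 32 members were chosen again, and the median in experiment 2 was 0.08, with 45 of 100 below 0. With experiment 3 left out, 20 members were chosen again, and the median in experiment 3 was -0.45, with 73 of 100 below 0. Over all features, 50.6%, 50.2% and 49.8% were below 0 in experiments 1, 2 and 3. In the experiments that chose them the medians had been -1.06, -1.13 and -0.84.

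**Figure D2:**
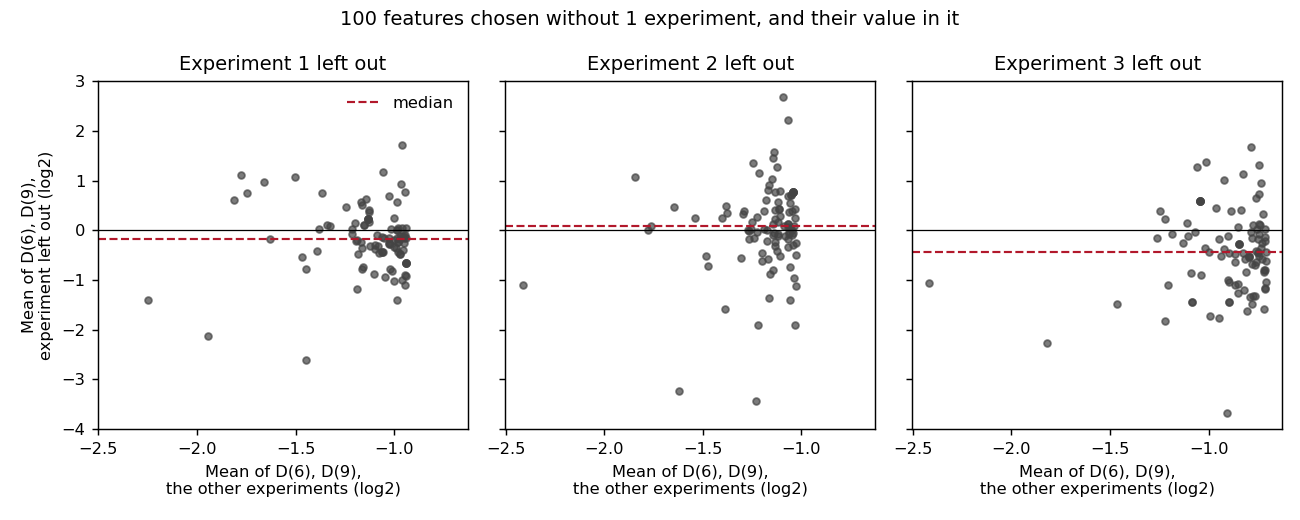
Mean of D at 6 and 9 h (log2) of the 100 features chosen without experiment 1, 2 or 3 (panels), in the choosing experiments (x) and in the experiment left out (y). The dashed medians lie at -0.18, 0.08 and -0.45 and the points scatter on both sides of the 0 line.

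Only 2 members were chosen whichever experiment was left out, the unnamed feature 16157008 and LOC4342315, a gene on chromosome 7. LOC4342315 had levels of 7.14, 6.27 and 7.18 in DXC at 0 h (experiments 1 to 3), against 8.19, 6.75 and 7.78 in DX. At 6 h it had 7.03, 5.85 and 6.57 in DXC, against 8.89, 6.93 and 8.63 in DX. At 9 h it had 6.89, 6.07 and 6.88 in DXC, against 9.13, 7.10 and 8.70 in DX. DXC was below DX in each experiment at all 3 hours, and experiment 2 held the lowest values of both lines. At 12 h the levels were 6.99, 7.26 and 7.36 in DXC, against 8.00, 7.13 and 7.13 in DX, so the lines overlapped. Its mean D at 6 and 9 h was -1.0, -0.58 and -1.34 in experiments 1, 2 and 3. Feature 16157008 had -1.40, -3.44 and -1.06. The level of LOC4342315 moved with the SD over all features of an array, at r of -0.91, against -0.21 for 16157008. The dip of LOC4342315 is thus not told apart here from one that goes with that SD. Its mean DXC minus DX difference was -0.71 at 0 h, and its mean D over 12 to 45 h was 0.55.

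The arrays of 3 h are the 6 arrays that the rule did not use, and the difference between the lines there could be tested. By limma, with Benjamini-Hochberg adjustment over all 36643 features, 0 members passed an adjusted p of 0.05, where 0.0928% of all features passed. At an unadjusted p under 0.05 there were 45 members, against 34.5% of all features. The 3 h difference was below 0 in 85 of the 100 members, against 45.9% of all features, with a median of -0.61. Without experiment 3 the median was -0.38, with 79 below 0. With the SD over all features of each array as a covariate, an alternative added after the data were seen, the median was 0.03 and 44 members were below 0, so the direction at 3 h was lost. At 3 h each DXC array had a higher SD than the DX array of its experiment. This fit thus cannot tell a difference between the lines from one that goes with the SD. At 3 h all DXC arrays lay below all DX arrays for 30 members, against 12.5% of all features. In simulated data the same fit recovered 70% of changes of 1.0 and 10% of changes of 0.5 at 3 h. The changes were put in features drawn from the whole table, with noise independent between arrays. The members were more variable, with a median pooled SD of 0.49, against 0.25 over all features, so these shares can be too high for them.

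The count at 3 h depended on the model. With the experiment as a block, which pairs the lines, 16 members passed, all lower in DXC, where 14.7% of all features passed, 5.25% as lower and 9.42% as higher. Without experiment 2, 17 members passed as lower and 1, LOC4337133, as higher, where 15.2% of all features passed, 5.47% as lower and 9.77% as higher. With blocks of 4 sampled hours as a random block, an alternative added after the data were seen, 22 members passed as lower and 1 as higher, where 16.7% of all features passed, 6.51% as lower and 10.2% as higher. Without experiment 1 or experiment 3, 0 members passed, where 0.00546% and 0.0355% of all features passed. In the models that gave calls, the members' share was near that of all features in both directions together and above it in the lower direction. The choice of members can carry over to that direction, since the 3 h arrays share blocks of hours with the arrays of the choice.

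LOC4337645, a protein-coding gene on chromosome 5 with no further name, had the lowest adjusted p at 3 h. Its levels at 3 h were 5.57, 4.56 and 5.20 in DXC, against 6.21, 5.68 and 6.57 in DX. Every DXC value lay below every DX value. The difference was -1.04 (SE 0.31, n = 3 per line), with an adjusted p of 0.0624 by limma, which misses the threshold. The adjusted p was 0.0316 with the experiment as a block, 0.042 without experiment 2 and 0.0166 with the blocks of hours. It was 0.289 without experiment 1 and 0.413 without experiment 3. With the array SD as a covariate the difference was -0.27, with an adjusted p of 0.999. At 6 h its levels were 5.04, 5.03 and 4.97 in DXC, against 6.19, 5.50 and 6.72 in DX, and at 12 h they were 4.89, 5.49 and 5.38 in DXC, against 5.69, 5.58 and 5.39 in DX. The DXC values at 6 h were nearly the same in the 3 experiments, while the DX values spread over more than 1 log2 unit.

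OsYABBY3 (LOC4349074) had a course like that of the members' median. It had 5.30, 4.56 and 4.81 in DXC at 0 h, against 5.35, 4.79 and 4.60 in DX. At 6 h it had 4.79, 4.14 and 4.31 in DXC, against 5.72, 5.08 and 5.89 in DX. At 9 h it had 4.81, 4.10 and 4.38 in DXC, against 5.49, 4.92 and 5.73 in DX. The lines overlapped at 0 h and were apart at 6 and 9 h, with every DXC value the lower. At 12 h the levels were 4.74, 5.07 and 4.69 in DXC, against 5.20, 4.68 and 4.82 in DX, overlapping again. The 3 h arrays, not used in the choice but in the same block of hours, gave a difference of -0.52 (adjusted p = 0.229 by limma). It was -0.18 without experiment 3 and turned to 0.28 with the array SD as a covariate. Of the 6 YABBY features of the table, 0 passed at 3 h, where 0.0928% of all features passed, and OsYABBY3 was the only member among them.

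DREB1A (LOC4347620) had the lowest value of all members, and its course differed from that of OsYABBY3. Its levels at 0 h were 6.62, 6.66 and 3.93 in DXC, against 3.74, 3.81 and 3.79 in DX. At 3 h they were 6.10, 3.87 and 7.0 in DXC, against 3.96, 3.69 and 4.75 in DX. At 6 h they were 4.22, 4.41 and 4.81 in DXC, against 3.69, 6.99 and 5.08 in DX. DXC was the higher line at 0 and 3 h, and at 6 h its values lay inside the range of DX, whose high mean came mainly from experiment 2. At 9 h the levels were 5.33, 4.21 and 5.40 in DXC, against 4.38, 4.0 and 4.55 in DX, and at 12 h they were 7.39, 3.63 and 3.83 in DXC, against 3.96, 3.62 and 3.66 in DX. The mean of D at 6 and 9 h was -2.13, -4.04 and 0.14 in experiments 1, 2 and 3. Its low value thus came from 2 experiments, through a high DXC level at 0 h in both and a high DX level at 6 h in experiment 2. The 3 h difference was 1.52 (SE 0.87, adjusted p = 0.194 by limma). At 24 h DREB1A had 6.81, 6.80 and 7.77 in DXC, against 4.07, 3.96 and 3.62 in DX, and at 39 h 8.29, 7.51 and 7.30 in DXC, against 4.65, 4.62 and 4.78 in DX. At both hours every DXC value was above every DX value.

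Of the 9 DREB1/CBF features in the table, 0 passed at 3 h by limma, where 0.0928% of all features passed, and DREB1A was the only member. DREB1I (LOC4346220) was nearly as low at 6 and 9 h, with a mean D of -1.83, and failed the limit on later hours with -0.46. DREB1H (LOC4347619) and DREB1B (LOC4347618) had -0.58 and -0.26. The other 5 lay between -0.34 and 0.21. The family list and the YABBY and CCCH lists were drawn up after the members' values were seen.

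The 10 members whose level over the 96 arrays correlated with that of DREB1A at r over 0.5 shared this course in their medians. Some of the 10 departed from it at 3, 6 or 9 h, as the counts below show. This group was formed after the values were seen and gets no test. The closest were LOC4337133 (r = 0.91) and LOC4337129 (r = 0.90), which lie on chromosome 4 with 3 annotated genes between them, then OsC3H37 (r = 0.82) and LOC4327270 (r = 0.82). Among all features, these 2 chromosome 4 genes were also the most like DREB1A, ahead of LOC4349493 (r = 0.88), the first feature outside the limit. With DREB1A counted, the number of the 11 that were higher in DXC was 11, 10, 2, 8 and 11 at 0, 3, 6, 9 and 12 h. Their median level at 0, 3, 6, 9 and 12 h was 5.74, 5.50, 4.64, 4.98 and 5.29 in DXC, against 4.32, 4.52, 5.66, 4.71 and 3.84 in DX. In these medians DX was the higher line at 6 h and DXC at the other 4 hours. At 24 h and at 45 h DXC was the higher in 11 of 11, and at 33 h in 8.

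OsC3H37 (LOC4339379) showed the exchange at 6 h in every experiment. At 0 h it had 7.02, 6.44 and 6.47 in DXC, against 6.01, 5.56 and 5.45 in DX. At 6 h it had 6.09, 5.15 and 5.43 in DXC, against 6.32, 6.46 and 6.14 in DX. At 9 h it had 6.91, 6.11 and 6.83 in DXC, against 5.90, 5.44 and 5.43 in DX. The lines did not overlap at any of these hours, with DXC the higher at 0 and 9 h and the lower at 6 h. D was -1.72 at 6 h and 0.06 at 9 h, so this member owes its place to 6 h alone. At 3 h the difference was 0.52 (adjusted p = 0.325 by limma). Of the 53 CCCH features in the table, 1 passed at 3 h, where 0.0928% of all features passed. It was OsC3H24 (LOC4333810), which was higher in DXC by 0.69 (adjusted p = 0.0356 by limma) and is not a member.

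LOC4332595, a protein-coding gene on chromosome 3, had the same exchange with a narrow peak in DX. Its levels at 6 h were 4.59, 4.30 and 5.03 in DXC, against 6.19, 5.58 and 5.22 in DX. At 0 h they were 5.63, 4.50 and 4.95 in DXC, against 4.64, 3.86 and 3.94 in DX, and at 9 h 5.27, 4.15 and 6.70 in DXC, against 4.40, 3.82 and 4.31 in DX. All 3 DX experiments were more than 1 log2 unit higher at 6 h than at 0 h. LOC4337129 had 6.06, 5.10 and 4.79 in DXC at 0 h, against 3.96, 3.61 and 3.96 in DX. At 6 h it had 4.32, 3.42 and 4.63 in DXC, against 4.25, 5.20 and 4.08 in DX. Its lines did not overlap at 0 h and overlapped at 6 h.

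**Figure D3:**
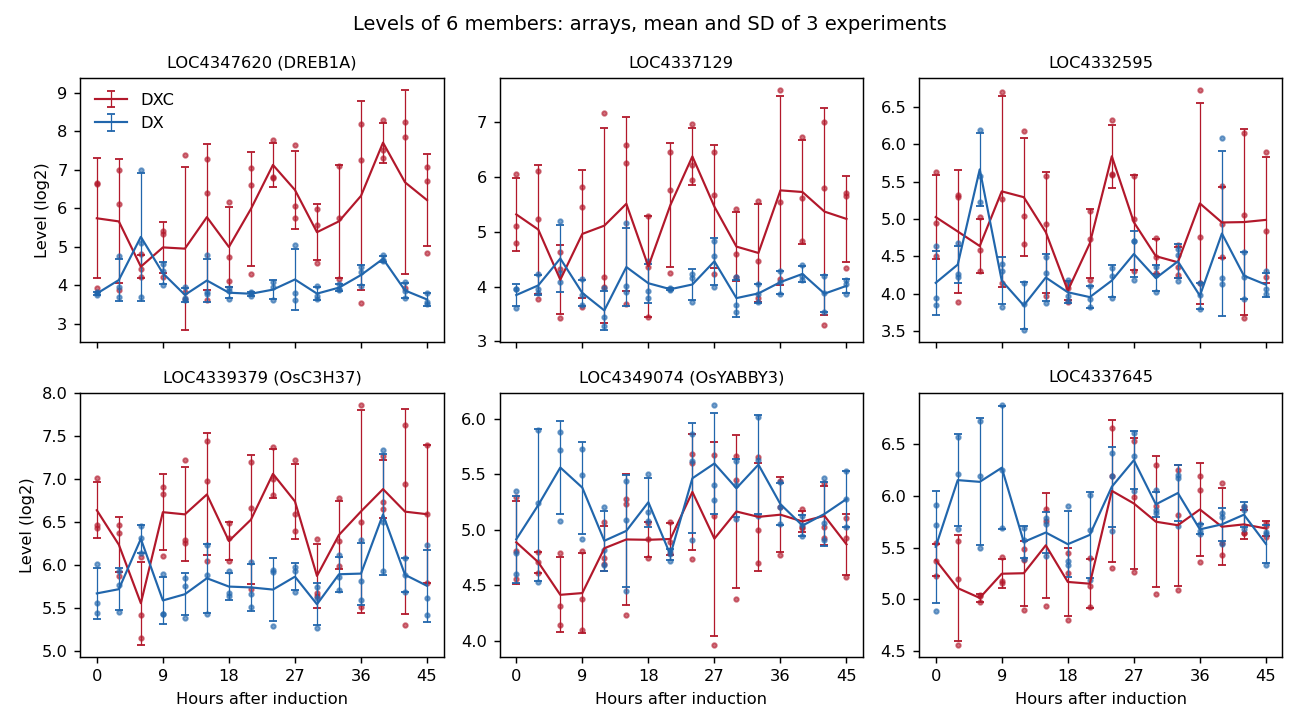
Levels (log2) of 6 members over 45 h in DXC (red) and DX (blue), with each array as a point and the mean and SD of 3 experiments. DREB1A, LOC4337129, LOC4332595 and OsC3H37 were higher in DXC at most hours and not at 6 h, while OsYABBY3 and LOC4337645 were higher in DX at 3 to 9 h.

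Other members lie close to each other in the order of features. Features 16156988, 16156994, 16156995, 16157007 and 16157008 fall within a run of 21 consecutive features, none with a gene symbol, between LOC4350051 and LOC4350054 of chromosome 11. Their levels correlated over the arrays at r of 0.35 to 0.72. The highest D of them at 12 h was 1.24, in 16157008. Its levels at 0 h were 6.46, 6.03 and 5.95 in DXC, against 5.55, 4.45 and 3.98 in DX, and at 9 h 4.57, 2.52 and 6.90 in DXC, against 5.76, 4.43 and 5.42 in DX. At 9 h the DXC values spread over more than 4 log2 units. LOC4325301 and LOC4326919 of chromosome 1 have 1 annotated gene between them. Their 3 h differences of -1.09 and -1.01 passed with the experiment as a block, without experiment 2 and with the blocks of hours. They did not pass with all experiments and no block, without experiment 1 or experiment 3, or with quantile normalization. Nor did they pass with the 3 h arrays alone or with the array SD as a covariate. Among features above the median level, LOC4325301 did not pass and LOC4326919 was not included. Their levels correlated with the array SD at r of -0.86 and -0.80.

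By the rule for naming genes, the 20 members with a symbol and the lowest values ran from DREB1A at -2.01 to LOC9267215 at -0.88. Of these 20, 18 are protein coding and 15 were below 0 at 6 and 9 h in all 3 experiments. At 3 h 16 were lower in DXC and 0 passed the test. LOC4330834 followed DREB1A in the order, with levels at 6 h of 4.28, 4.05 and 4.03 in DXC, against 5.96, 4.24 and 5.70 in DX. Experiment 2 showed the smallest gap. LOC9269308 rested on 1 experiment, with a mean D at 6 and 9 h of 0.37, 0.24 and -3.46 in experiments 1, 2 and 3.

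The mean of both lines is another quantity than their difference, but it comes from the same arrays that chose the members, and DX arrays varied more than DXC arrays at 0 to 9 h. Its values are therefore a description, and nothing is read from its counts. From 0 h to 6 and 9 h the mean of DXC and DX changed by a median of 0.13 over the members and was higher in 82 of 100. Without experiment 3 the median was 0.02 and it was higher in 52. By limma 0 members passed, where 1.19% of all features passed, and 2 members had an unadjusted p under 0.05, against 8.12% of all features. Over the whole course, an F test of the hour effect on the mean of both lines called 1 member, the unnamed feature 16192120 (adjusted p = 0.0113), where 3.91% of all features passed. At an unadjusted p under 0.05 there were 22 members, against 20.7% of all features. Without experiment 1 or experiment 2 the count was 0, where 0.278% and 0.868% of all features passed, and without experiment 3 it was 13, where 12.0% passed. With the experiment as a block it was 6, where 9.06% passed.

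The members' level moved with the spread of values within an array. The SD over all 36643 features of an array ran from 1.62 to 1.68 in DXC and from 1.40 to 1.65 in DX at 0 to 9 h. At 12 to 45 h it ran from 1.43 to 1.65 in DXC and from 1.44 to 1.63 in DX. Over the 96 arrays, the median deviation of the members from their own means had a Pearson r of -0.92 and a Spearman rho of -0.85 with that SD. This is a description, since arrays share lines, experiments and neighbouring hours. Single members followed it to different degrees, with 70 below an r of -0.5, against 26.3% of all features, 23 above -0.2 and 7 between.

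**Figure D4:**
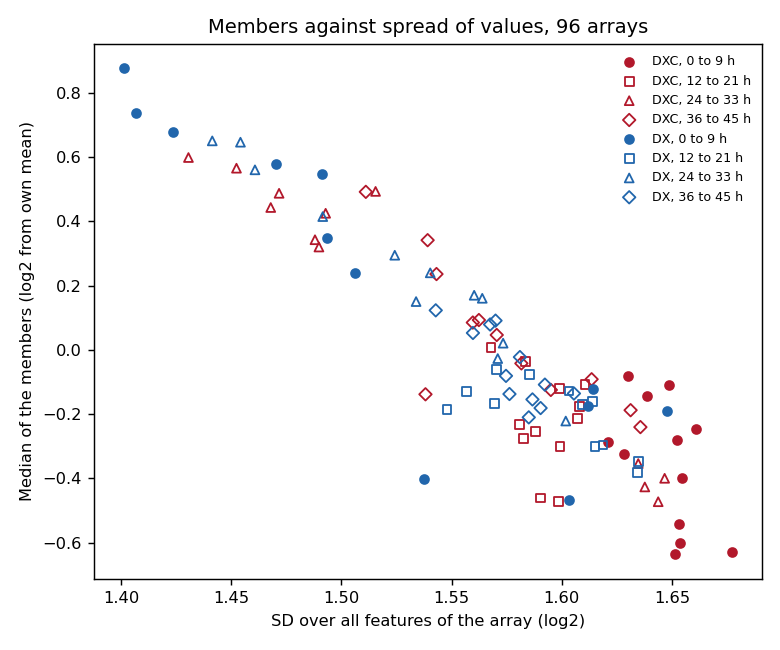
Median of the members on each of the 96 arrays (log2 deviation from each member's own mean) against the SD over all features of the array (log2). DX arrays of 0 to 9 h (filled blue) spread over SD values of 1.40 to 1.65, and DXC arrays of 0 to 9 h (filled red) lie together at SD values of 1.62 and above.

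The largest steps of the SD mostly fell between blocks of 4 sampled hours of a line and experiment, with a step of the members beside them. DX in experiment 3 is an exception, since its 0 h array, which D subtracts, stood apart from the other arrays of its block. In experiment 3 the DX arrays had SD values of 1.54, 1.41, 1.40 and 1.42 at 0, 3, 6 and 9 h and 1.62 at 12 h. The members' median on these arrays was -0.40, 0.74, 0.88 and 0.68 from their own means at 0, 3, 6 and 9 h. The median difference of the members in that experiment was 0.19, -1.02, -1.42 and -1.20 at 0, 3, 6 and 9 h and 0.18 at 12 h. Differences of similar kind stood outside the early hours. In experiment 3 the median difference was -0.57, -0.55, -0.73 and -0.79 at 24, 27, 30 and 33 h. In experiment 2 it was 0.84, 0.54, 0.46 and 0.52 at the same hours, with DXC arrays of low SD, 1.43 to 1.47. These opposite values cancel in part in the mean over experiments. The labels give no batch for these blocks, and 0, 3, 6 and 9 h fall in 1 block. With the SD as a covariate in the fit, the median of the mean D at 6 and 9 h was -0.68, and the 3 h direction was lost, as given above.

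**Figure D5:**
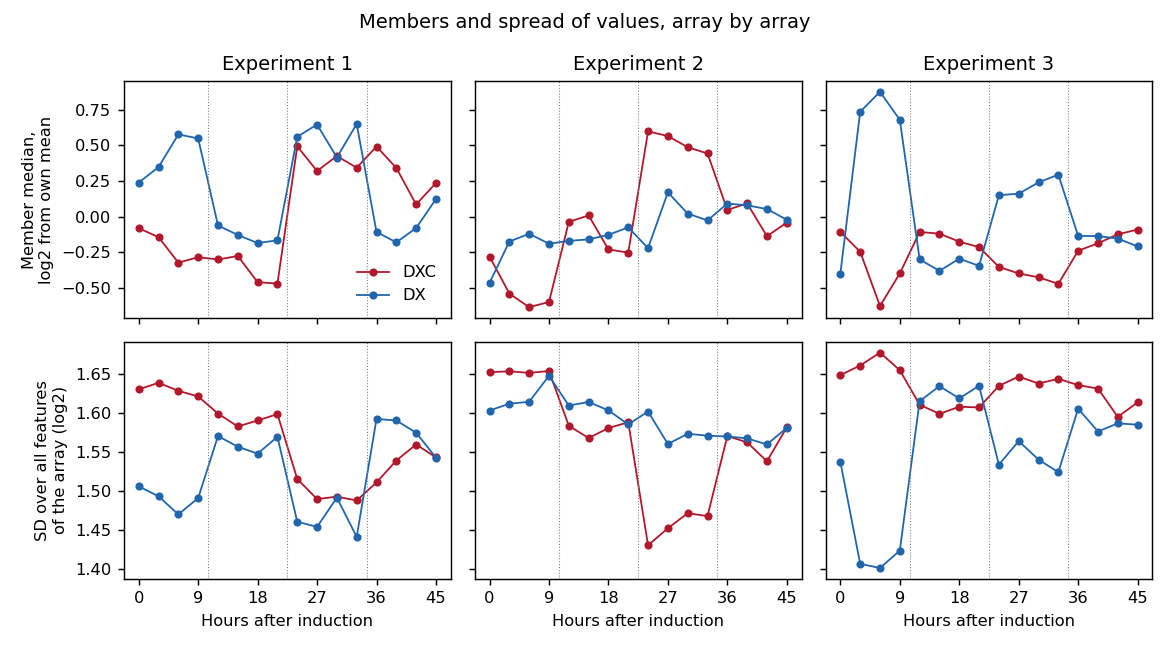
For each experiment, the median of the members on each array (top, log2 deviation from own mean) and the SD over all features of that array (bottom, log2) by hour, in DXC (red) and DX (blue), with dotted lines between blocks of 4 sampled hours. The curves in the bottom row mirror those in the top row in part, as in DX of experiment 3 at 3 to 9 h. In DX of experiment 2 both were higher at 3 to 9 h than at 0 h.

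The members that did not follow the SD, DREB1A among them, had another course. The split by r used these same arrays. At 3, 6 and 9 h each DXC array had a higher SD than the DX array of its experiment. Members with r below -0.5 thus tend to be lower in DXC at those hours through the split itself, and the courses are a description. The 23 members with r above -0.2 had a median difference of 0.50, 0.42, -0.48, -0.36 and 0.83 at 0, 3, 6, 9 and 12 h. The 70 members with r below -0.5 had -0.05, -0.79, -1.03, -0.94 and -0.09. All 15 members that were higher in DXC at 3 h were among the 23, while 13 of the 14 members without overlap at 6 and 9 h were among the 70. Of the 23, 13 were below 0 in all 3 experiments, and of the 70, 49. Members were also more variable than other features, with a median pooled SD over replicates of 0.49, against 0.25 over all features, at a median level of 5.05, against 4.69.

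The lists of functional genes held few members, and nothing is read from that count. At the share of 100 members in 36643 features, lists of 2 to 83 features would hold few or none. Of 16 lists, covering hormones, stress, wall, transport, the clock and crown root regulators, 15 held no member and the list of WRKY, ERF and NAC stress regulators held DREB1A alone among 35 features. At 3 h 0 features of any of the 16 lists passed, where 0.0928% of all features passed. The lists for leaf and seed material, which a stem base sample can carry, held no member either. The median level of the 7 photosynthesis features at 0, 3, 6, 9 and 12 h was 6.45, 6.17, 6.08, 5.79 and 5.74 in DXC, against 6.04, 5.78, 5.66, 5.83 and 6.01 in DX. The 13 seed features had 3.80, 3.66, 3.58, 3.69 and 3.68 in DXC, against 4.11, 4.06, 4.20, 4.11 and 3.69 in DX. The summed level of the photosynthesis list at 6 and 9 h ran over the arrays from 9.21 to 9.62 (log2) in DXC and from 8.79 to 9.82 in DX, and that of the seed list from 9.02 to 9.68 in DXC and from 8.89 to 9.63 in DX. The median seed feature was thus higher in DX at 0 to 9 h, while the summed levels overlapped, and the part of either list in the members' values was not tested.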

How the data were processed

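The deposited table held log2 levels per feature that the authors had already normalized. GCRMA, a background correction, normalization and summary method, is named in the submitters' processing notes, with version and settings not given in the sources used here. No detection call stands behind a level, since no scanner file was used, and precision is limited by the number of arrays. The 96 columns were matched to line, hour and experiment by their titles, and 0 columns were left without a sample.

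Gene symbols came from the platform annotation, and synonyms, biotypes, chromosomes and gene order from the RefSeq table of assembly ASM3414082v1, in which all 24161 features with 1 symbol were found.

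The 32 groups of 3 arrays were fitted together with limma 3.58.1 in R 4.3.3 (lmFit, then eBayes with its trend option, on 64 residual degrees of freedom). Benjamini-Hochberg adjustment ran over all features, and calls were made under 0.05. The scripts were tested on simulated data with 200 changed features. Named are the 20 members with 1 symbol and the lowest values, those with a further name, those at the limit of the choice, and members called at 3 h; LOC4342315, the members like DREB1A, pairs of neighbouring genes and single unnamed features were chosen after their values were seen. The members and lists were chosen with earlier results of these data known.

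Same-numbered samples come from the same independent experiment, per the series' design text. Over 48 pairs of DXC and DX arrays, deviations from the group means had a mean correlation of 0.05, with 16 pairs over 0.1 and a lowest of -0.64. Alternatives were the experiment as a block, each experiment left out, quantile normalization, features above the median level, the 3 h arrays alone and other forms of the rule. The others were added after the data were seen, the array SD as a covariate and blocks of 4 sampled hours as a random block.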

Additional observations from a re-analysis of the deposited data

Results flagged for a closer look

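The median change of the members from 0 h went opposite ways in the lines in every experiment. From 0 to 3 h it was -0.15, -0.19 and -0.06 in DXC (experiments 1 to 3), against 0.13, 0.38 and 1.07 in DX, and the mean of DXC was below that of DX by a difference of -0.66. From 0 h to the mean of 6 and 9 h it was -0.25, -0.32 and -0.34 in DXC, against 0.25, 0.36 and 1.12 in DX, a difference of -0.88. Neither difference was tested. Arrays of 0, 6 and 9 h chose the members, so the second direction follows from the choice, and the first shares its 0 h arrays. The DX change was largest in experiment 3, whose DX arrays of 3 to 9 h had the lowest SD over features of those hours.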

How the results depend on the processing

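Membership depended on the form of the rule. Of the 100 members, 20 to 45 remained when 1 experiment was left out. With the 3 h arrays as baseline 13 remained, without subtraction of the 0 h difference 18, with a later limit of -0.5 62 and with a limit of 0 40. With 6 h alone 53 remained and with 9 h alone 48. Among features above the median level 63 remained, all that could, and with quantile normalization 68. The median of the members was -0.25 with the 3 h baseline. For the same 100 members it kept its sign in all other settings run, from -1.10 to -0.62, which the choice by this quantity favours. It was -0.87 in the fit with experiment as a block, where it cannot differ. Features chosen without experiment 1, 2 or 3 had medians of -0.18, 0.08 and -0.45 in the experiment left out.

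Calls at 3 h were 0 to 18 with 1 experiment left out, 16 in the paired fit by experiment and 23 with blocks of 4 sampled hours as a random block, where 16.7% of all features passed. They were 0 with quantile normalization, features above the median level, the 3 h arrays alone or the array SD as a covariate, where 0.0791%, 0.955%, 0.00819% and 0.0136% of the features tested passed. The hour effect called 0 to 13 members with 1 experiment left out, the 13 beside 12.0% of all features, and 6 in the paired fit, beside 9.06%. It called 2 with quantile normalization, beside 5.42%, and 2 of 63 members among features above the median level, beside 7.54%. It called 0 with the array SD, beside 6.54%, and 0 with the blocks of hours, beside 2.73%. The mean of both lines called 0 in every setting run. The 3 h difference of OsYABBY3 turned to 0.28 with the array SD as a covariate. The cause of these changes was not tested. With 3 arrays per group, differences of 0.5 at 3 h were mostly missed in the simulated data.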
